A study of Homo sapiens with 4 samples.

Results

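ES2 cells were examined for the expression of 10 genes of the circadian clock after treatment with vehicle or with liquiritigenin (Liq). The genes were CLOCK, ARNTL (listed under this older symbol of BMAL1), PER1, PER2, PER3, CRY1, CRY2, DBP, TEF and BHLHE40, taken as a list of symbols that was drawn up with earlier results of these data known. All 10 had a row among the 23228 genes of the count tables, and all 10 passed the filter on low counts that left 13546 genes for testing. ES2 cells are a human line established from an ovarian tumor, which the study uses as a model of cisplatin resistance, and Liq is a plant flavanone used there as an agonist of estrogen receptor beta (ERβ). Both groups were grown in phenol red-free RPMI-1640 with dextran-charcoal treated serum and were treated for 24 h, 2 samples with vehicle and 2 with 100 μM Liq. No step that sets the cells to a common clock phase is given in the sources used here. With 1 time point, a change in the level of a rhythmic gene and a shift of its phase cannot be told apart, and in bulk RNA fewer expressing cells and less RNA per cell cannot be told apart either.

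The circadian clock is a feedback loop of transcription that runs in most cells of the body with a period of about a day. CLOCK and ARNTL pair and bind E-box sequences to switch on the PER and CRY genes, and the PER and CRY proteins return to the nucleus and inhibit that pair. BHLHE40 represses the same E-boxes, ROR and NR1D nuclear receptors act on ARNTL through ROR elements, and DBP, TEF and their relatives carry the rhythm to output genes through D-boxes. In cultured cells the loop is known to be reset by serum, steroids and many signaling pathways.

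Reads counted on genes numbered from 34573053 to 48933893 per sample, and 3 counts corresponded to 0.061 to 0.087 CPM (counts scaled to a common library size). The 4 samples were apart beyond counting noise, and the 2 samples of a group resembled each other more than samples of different groups did (chi-square per degree of freedom of 6.33 and 11.1 within groups and 58.4 to 71.4 between them). The labels do not say that the 2 samples of a group came from separate cultures, so the p-values measure the spread between these samples. Levels are given as CPM after TMM normalization, and log2 fold changes, positive where Liq was higher, come from edgeR's quasi-likelihood test with the standard error (SE) or the 95% confidence interval. A gene was called changed at a Benjamini-Hochberg adjusted p-value under 0.05 over all tested genes, and the additional threshold of 1.5-fold is that of the study. Keratin genes and VIM were well expressed (KRT8 at 23.3 to 27.2 CPM and VIM at 5871 to 7604 CPM), EPCAM had 1 to 3 counts, and MUC16 had 0 or 1. The ovarian lineage gene PAX8 was at 1.19 and 1.23 CPM in vehicle and at 0.337 and 0.578 CPM in Liq. Of 8 carcinoma and epithelial markers, 5 were tested, with KRT7 called higher and KRT18, PAX8 and WT1 called lower, and the part of these differences in the clock gene results was not tested. Of the genes that mark other cell types, CD3E and ALAS2 had 0 counts, PTPRC and HBB at most 2, and CD14 3 to 11. Of 3 endothelial markers, CDH5 was at 44.6 to 52.9 CPM, while PECAM1 had 10 and 5 counts in vehicle and 2 and 2 in Liq, and VWF 7 and 2 in vehicle and 1 and 1 in Liq. ESR2, which encodes ERβ, was counted 4 and 7 times in vehicle and 5 and 14 times in Liq, and did not pass the filter. ESR1, which encodes estrogen receptor alpha, was counted 22 and 17 times in vehicle and 19 and 34 times in Liq. It was tested and not called (edgeR adjusted p = 0.5539).

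Of the 10 clock genes, BHLHE40, CRY1 and PER2 were lower and PER3 was higher in Liq-treated cells, while CLOCK, ARNTL, PER1, CRY2, DBP and TEF did not pass the test (edgeR, n = 2 per group). The 3 decreases stand beside 11.3% of all tested genes that were called lower, and the 1 increase beside 12.6% called higher. With the 1.5-fold threshold, BHLHE40 alone was called, where 2.16% of all genes were called lower, and 0 clock genes were called higher, where 4.29% of all genes were. At an unadjusted p-value under 0.05 the same 4 clock genes passed. The share of all tested genes under that threshold was not computed. It is larger than the 24.0% with an adjusted call, because genes such as FBXW11 and VEGFA passed unadjusted only. The 24.0% is therefore no measure for these 4 genes at the unadjusted threshold, and no excess is read from their number. DESeq2 called 3 of the 4, and 2378 of all 13546 tested genes. For 6 of the 10 genes the CPM ranges of the Liq and vehicle groups did not overlap, a separation that 61.7% of all tested genes showed. The median log2 fold change was -0.05 over the 10 genes and 0.01 over all tested genes.

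**Figure D1:**
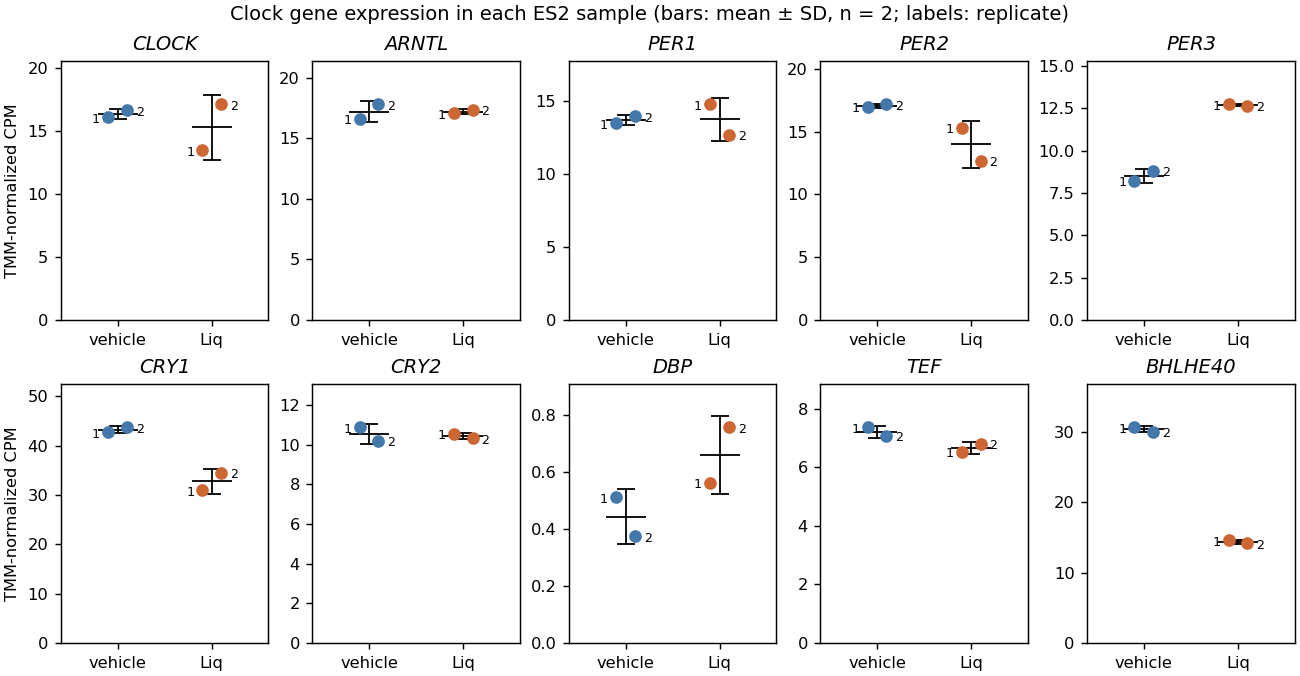
TMM-normalized CPM (y axis, from 0) of each of the 10 clock genes in the 2 vehicle and 2 Liq samples (x axis), with points for samples, numbers for replicates, and the mean ± SD of each group in black. BHLHE40, CRY1 and PER2 lie lower in both Liq samples and PER3 higher, while the groups overlap for CLOCK, ARNTL, PER1 and CRY2.

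BHLHE40 (DEC1), on chromosome 3 from 5021122 to 5027008 (GRCh37, plus strand, GENCODE annotation), encodes a basic helix-loop-helix repressor that competes for E-boxes. Its 250 bases upstream of the transcription start are shown because they hold a canonical E-box, the sequence CACGTG, set in capitals (chr3:4979187-4979436, GRCh38.p14, plus strand, RefSeq).

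BHLHE40 upstream: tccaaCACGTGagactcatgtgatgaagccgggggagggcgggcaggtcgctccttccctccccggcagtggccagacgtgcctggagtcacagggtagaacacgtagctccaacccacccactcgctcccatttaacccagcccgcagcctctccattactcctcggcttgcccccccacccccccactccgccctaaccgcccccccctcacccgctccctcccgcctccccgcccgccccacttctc

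BHLHE40 was counted 1260 and 1125 times in vehicle-treated and 519 and 712 times in Liq-treated cells. Scaled to library size this was 30.7 and 30.1 CPM in vehicle against 14.6 and 14.2 CPM in Liq. The Liq samples were far below the vehicle samples, and the 2 samples of each group were within 1 CPM of each other. The mean fell from 30.4 ± 0.4 to 14.4 ± 0.3 CPM (SD, n = 2), 2.11-fold lower, with a log2 fold change of -1.08 (SE 0.10, edgeR adjusted p = 3.114e-09). By p-value BHLHE40 was at place 73 among the 13546 tested genes. An antisense gene, BHLHE40-AS1, overlaps it on the other strand and the strand setting of the counting is not given in the sources used here, so its reads cannot be told apart from those of BHLHE40. The closest relative, BHLHE41 (DEC2), had 35.6 and 38.7 CPM in vehicle and 34.5 and 32.2 CPM in Liq, a log2 fold change of -0.16 (95% interval -0.34 to 0.03, edgeR adjusted p = 0.2092). Within each library the counts of BHLHE40 were 0.861 and 0.776 times those of BHLHE41 in vehicle and 0.423 and 0.441 times in Liq, a comparison that does not depend on the normalization between libraries.

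The 3 PER genes, whose proteins form the inhibitory complex with CRY, did not move together. PER3, on chromosome 1 from 7844351 to 7905237 (plus strand), had 338 and 330 counts in vehicle and 453 and 635 in Liq. This was 8.22 and 8.82 CPM against 12.7 and 12.6 CPM, and both Liq samples were above both vehicle samples. The increase was 1.49-fold, just under the 1.5-fold threshold, with a log2 fold change of 0.58 (SE 0.11, 95% interval 0.35 to 0.80, edgeR adjusted p = 0.0003878). PER2, on chromosome 2 from 239152685 to 239198743 (minus strand), was at 17.0 and 17.2 CPM in vehicle and at 15.3 and 12.7 CPM in Liq. Both Liq samples were lower, and they differed from each other more than the vehicle samples did. Its log2 fold change was -0.29 (SE 0.11, 95% interval -0.51 to -0.08, edgeR adjusted p = 0.04555). The PER2 call was lost with upper-quartile normalization (adjusted p = 0.08214), with DESeq2 (adjusted p = 0.1214) and without vehicle replicate 1, vehicle replicate 2 or Liq replicate 2 (edgeR adjusted p = 0.1986, 0.2187 and 0.3302). Without Liq replicate 2 the log2 fold change was -0.16. PER1, on chromosome 17 from 8043790 to 8059824 (minus strand), was at 13.5 and 14.0 CPM in vehicle and at 14.8 and 12.7 CPM in Liq, with overlapping groups. Its log2 fold change was 0.00 in size with a 95% interval of -0.22 to 0.22 (edgeR adjusted p = 0.9918), and its sign changed with the normalization.

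PER3 and PER2 were the members with a D-box (TTANGTAA, searched on both strands) in the RefSeq windows that reach from 250 bases before to 50 bases after a transcription start. This motif was in 2 of the 15 windows of the members and in 2.18% of all 35116 windows. PER3 has a pair of listed starts, and its D-box lies 177 bases before the upstream one (chr1:7784041-7784290, GRCh38.p14, plus strand). In PER2 it begins 3 bases before the start (chr2:238288596-238288623, minus strand). Both are shown, from RefSeq with the motif in capitals, because these genes moved in opposite directions.

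PER3 upstream: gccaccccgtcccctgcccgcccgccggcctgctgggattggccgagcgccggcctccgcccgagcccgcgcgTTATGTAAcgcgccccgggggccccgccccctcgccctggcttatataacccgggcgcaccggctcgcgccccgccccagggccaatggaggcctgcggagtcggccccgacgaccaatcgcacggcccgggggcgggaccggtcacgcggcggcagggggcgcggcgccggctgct

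PER2 D-box: ccgctgcggcTTACGTAAccgccgccgg

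The balance within the PER family can be read inside each library. PER3 made up 21.26% and 22.04% of all PER counts in vehicle and 29.74% and 33.25% in Liq. PER2 made up 43.9% and 43.0% in vehicle and 35.7% and 33.4% in Liq. The share of PER1 lay between 33.4% and 34.9% in all 4 samples. The summed PER level was 38.7 and 40.0 CPM in vehicle and 42.8 and 38.1 CPM in Liq, with overlapping groups. The ratio of PER3 to PER2 counts thus went from 0.484 and 0.512 to 0.833 and 0.997. An exact permutation test of such a ratio with 2 samples against 2 cannot give a p-value below 0.3333, so these ratios are given without a test.

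**Figure D2:**
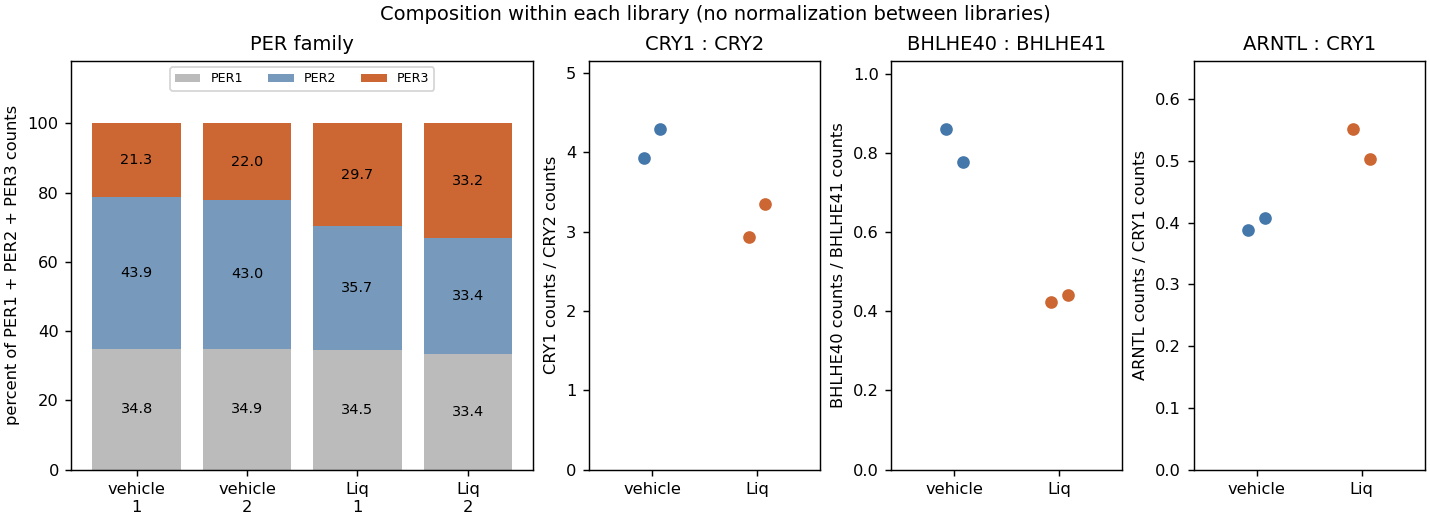
Left, percent of PER1, PER2 and PER3 counts (y axis) in each library (x axis); right, ratios of counts of 2 genes within a library (y axes, from 0), with 1 point per sample for vehicle and Liq. PER3 takes 21.26% and 22.04% of PER counts in vehicle and 29.74% and 33.25% in Liq. The groups do not overlap for the ratios CRY1 to CRY2, BHLHE40 to BHLHE41 and ARNTL to CRY1, each of which holds a called gene. They overlap for ARNTL to CLOCK (1.03 and 1.07 in vehicle, 1.27 and 1.01 in Liq) and for NPAS2 to CLOCK, which are not drawn. A ratio without a called gene can also be apart. TEF to DBP, not drawn, was 14.4 and 18.9 in vehicle and 11.6 and 9.0 in Liq. Single genes did not overlap in 61.7% of all tested genes, and the share for ratios was not computed.

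The cryptochromes CRY1 and CRY2 are the main inhibitors of the CLOCK and ARNTL pair. CRY1, on chromosome 12 from 107385142 to 107487327 (minus strand), had 1757 and 1636 counts in vehicle and 1101 and 1733 in Liq. Scaled to library size this was 42.7 and 43.7 CPM against 31.0 and 34.5 CPM, and the groups did not overlap once scaled, the library of Liq replicate 2 being the largest of the 4. CRY1 fell 1.32-fold, with a log2 fold change of -0.40 (SE 0.09, 95% interval -0.58 to -0.22, edgeR adjusted p = 0.001631). CRY2, on chromosome 11 from 45868669 to 45904799 (plus strand), was at 10.9 and 10.2 CPM in vehicle and at 10.5 and 10.3 CPM in Liq. The groups overlapped, and the log2 fold change was -0.01 with a 95% interval of -0.24 to 0.21 (edgeR adjusted p = 0.9408). CRY1 counts were 3.93 and 4.29 times CRY2 counts in the vehicle libraries and 2.94 and 3.35 times in the Liq libraries.

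Neither of the activators passed the test. CLOCK, on chromosome 4 from 56294070 to 56413076 (minus strand), encodes the partner of ARNTL and was at 16.1 and 16.6 CPM in vehicle. In Liq it was at 13.5 and 17.1 CPM, so that the Liq samples lay on either side of the vehicle samples. Its log2 fold change was -0.09 (95% interval -0.32 to 0.14, edgeR adjusted p = 0.602), and it went from -0.28 without Liq replicate 2 to 0.07 without Liq replicate 1. CLOCK overlaps TMEM165 on the other strand, which had 1929 to 2780 counts per sample. ARNTL, on chromosome 11 from 13298199 to 13408813 (plus strand), was at 16.6 and 17.8 CPM in vehicle and at 17.1 and 17.4 CPM in Liq. The Liq values lay between the vehicle values, and the log2 fold change was 0.00 (95% interval -0.20 to 0.20, edgeR adjusted p = 0.9964). These intervals do not show that the 2 genes were equal in the groups, but they hold no change as large as 1.5-fold. ARNTL counts were 0.389 and 0.408 times CRY1 counts in vehicle and 0.551 and 0.503 times in Liq.

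DBP and TEF are PAR bZIP factors that bind D-boxes. DBP, on chromosome 19 from 49133287 to 49140636 (minus strand), is a direct E-box target with a strong rhythm in many tissues. It was the least expressed of the 10 genes, with 21 and 14 counts in vehicle and 20 and 38 in Liq, or 0.511 and 0.374 CPM against 0.562 and 0.757 CPM. Both Liq values were above both vehicle values, but at this depth the log2 fold change of 0.59 had a 95% interval of -0.13 to 1.31 and did not pass the test (edgeR adjusted p = 0.2301). DBP overlaps SPHK2 on the other strand, which had 618 to 984 counts per sample. TEF, on chromosome 22 from 41763337 to 41795330 (plus strand), was at 7.37 and 7.08 CPM in vehicle and at 6.52 and 6.81 CPM in Liq. Both Liq values were lower, by less than the test could call, with a log2 fold change of -0.11 (95% interval -0.37 to 0.14, edgeR adjusted p = 0.548).

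**Figure D3:**
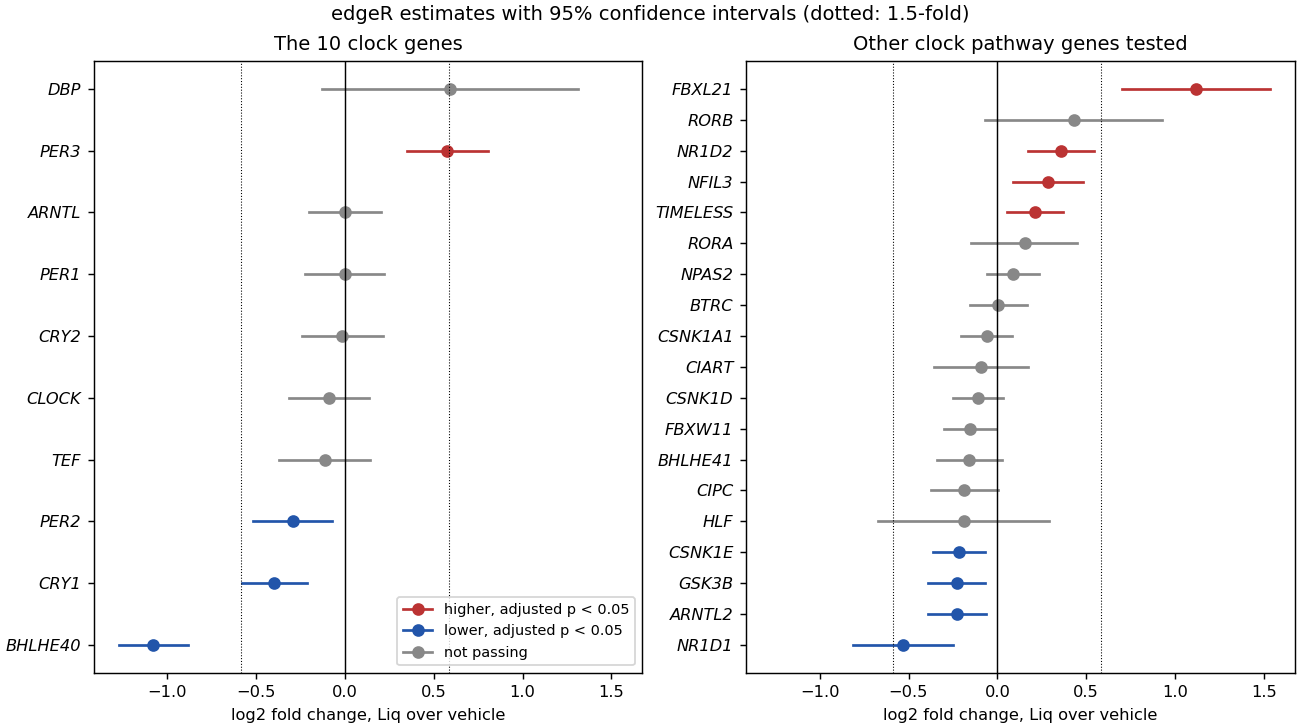
Log2 fold change, Liq over vehicle (x axis), of the 10 clock genes (left) and of other clock pathway genes tested (right), with points for edgeR estimates, lines for 95% confidence intervals, and colors for the adjusted p-value. BHLHE40 at -1.08 is the lowest of the 10, and FBXL21 at 1.12 is the highest of the other genes shown.

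Levels of different genes were compared as CPM per kilobase of the canonical GENCODE transcript (RPKM). In vehicle-treated cells the order was CRY1 (14.5 ± 0.2), BHLHE40 (9.63 ± 0.13), ARNTL (6.18 ± 0.31), PER1 (2.94 ± 0.07), PER2 (2.68 ± 0.03), CRY2 (2.55 ± 0.12), TEF (1.65 ± 0.05), CLOCK (1.56 ± 0.04), PER3 (1.34 ± 0.07) and DBP (0.204 ± 0.045 RPKM, SD, n = 2). No neighbours in this order overlapped in their 2 vehicle samples, although PER2 and CRY2, and TEF and CLOCK, were apart by less than 0.2 RPKM. In Liq-treated cells BHLHE40 went from the second to the third place, at 4.57 ± 0.09 RPKM behind ARNTL at 6.18 ± 0.07 RPKM, and PER3 from the ninth to the seventh, at 2.00 ± 0.01 RPKM. With the length of all annotated exons in place of the canonical transcript, PER2 came before PER1 in both groups and BHLHE40 stayed second in Liq. The paralogs of the activators were expressed at higher levels. NPAS2, which can replace CLOCK, was at 53.6 ± 0.6 RPKM in vehicle and 57.0 ± 4.2 RPKM in Liq, and ARNTL2 was at 13.1 ± 0.6 and 11.1 ± 0.9 RPKM (SD, n = 2). NPAS2 was above CLOCK also over the length of all exons, at 17.2 against 1.42 RPKM in vehicle.

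Of 22 other genes of the clock pathway, 20 were tested, and 4 were higher and 4 lower in Liq at an adjusted p-value under 0.05, with a median log2 fold change of -0.10. This is 40% of the tested members of the list, beside 24.0% of all tested genes called in either direction. USP2, a deubiquitinase gene, had 3 to 6 counts and did not pass the filter. NR1D1 and NR1D2, the nuclear receptors REV-ERBα and REV-ERBβ that repress ARNTL, moved in opposite directions. NR1D1 was at 8.78 and 7.80 CPM in vehicle and at 6.58 and 5.02 CPM in Liq, a log2 fold change of -0.53 (SE 0.14, edgeR adjusted p = 0.005767). NR1D2 was at 60.0 and 68.8 CPM in vehicle and at 74.4 and 90.4 CPM in Liq, a log2 fold change of 0.36 (SE 0.09, edgeR adjusted p = 0.004795). Both genes overlap another gene on the other strand, THRA for NR1D1 and NKIRAS1 for NR1D2. Both calls were lost without vehicle replicate 1, and that of NR1D1 also without Liq replicate 2.

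NFIL3, a bZIP repressor of D-boxes, rose with a log2 fold change of 0.28 (edgeR adjusted p = 0.03161), from 22.7 and 24.2 to 26.7 and 30.2 CPM. TIMELESS, which in mammals acts mainly at replication forks, had one of 0.21 (adjusted p = 0.04521, edgeR). The other decreases were those of ARNTL2 (log2 fold change -0.23, edgeR adjusted p = 0.0372) and of the PER kinases CSNK1E (-0.22, 0.02963) and GSK3B (-0.23, 0.03467). FBXL21 passed the 1.5-fold threshold alone among these genes, at 1.29 and 1.25 CPM in vehicle and 2.81 and 2.73 CPM in Liq, with a log2 fold change of 1.12 (SE 0.20, edgeR adjusted p = 0.000193). The GENCODE annotation lists this human locus as a pseudogene, FBXL21P, so its count says nothing of an F-box protein. The ubiquitin ligase genes BTRC and FBXW11 did not pass at the adjusted threshold. Neither did NPAS2, BHLHE41, CIART, CIPC, RORA, RORB, HLF, CSNK1D or CSNK1A1. Of the 8 calls, those of ARNTL2, CSNK1E and GSK3B were lost with upper-quartile normalization and with offsets along the expression level. The other 5 held under both, but those of NFIL3 and TIMELESS were lost with DESeq2, which kept 6 of the 8. The TIMELESS call was also lost without the filter on low counts. Without vehicle replicate 1 the single call was FBXL21, and without vehicle replicate 2 and Liq replicate 1 the number of calls was 3 and 5.

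The canonical E-box was found in the windows of 3 of the 10 members, BHLHE40, PER1 and TEF, or in 4 of the 15 windows of all members, and in 7.26% of all windows. The ROR half-site AGGTCA, on either strand, was found in those of ARNTL, CRY2 and PER1, or in 4 of the 15, and in 13.8% of all windows. A site each of PER1 (chr17:8152562-8152587, minus strand), TEF (chr22:41367250-41367275, plus strand) and ARNTL (chr11:13277811-13277836, plus strand; all GRCh38.p14, RefSeq) is shown with the motif in capitals for comparison with BHLHE40, since these genes did not pass the test. These letter matches are a description of the windows and not of binding.

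PER1 E-box: cacccaggtcCACGTGcgcccgtgtg

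TEF E-box: gcgacagctcCACGTGctgcagctgg

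ARNTL ROR element: ggcagaaagtAGGTCAgggacggagg

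The genes with the most similar pattern were sought for the 2 members with the smallest p-values, as the distance between log2 CPM values, centred on each gene's mean over the 4 samples, among 12216 genes with a mean of at least 1 CPM. Nearest to BHLHE40 were LETM2 (distance 0.057), NLRP3 (0.066) and CDKN1A (0.075), with log2 fold changes of -1.04, -1.05 and -1.08. Nearest to PER3 were C10orf90 (distance 0.023), WNT5B (0.026) and ZNF252 (0.031), with log2 fold changes of 0.58, 0.58 and 0.59. The distance rests on 4 samples that differ mainly by group.

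**Figure D4:**
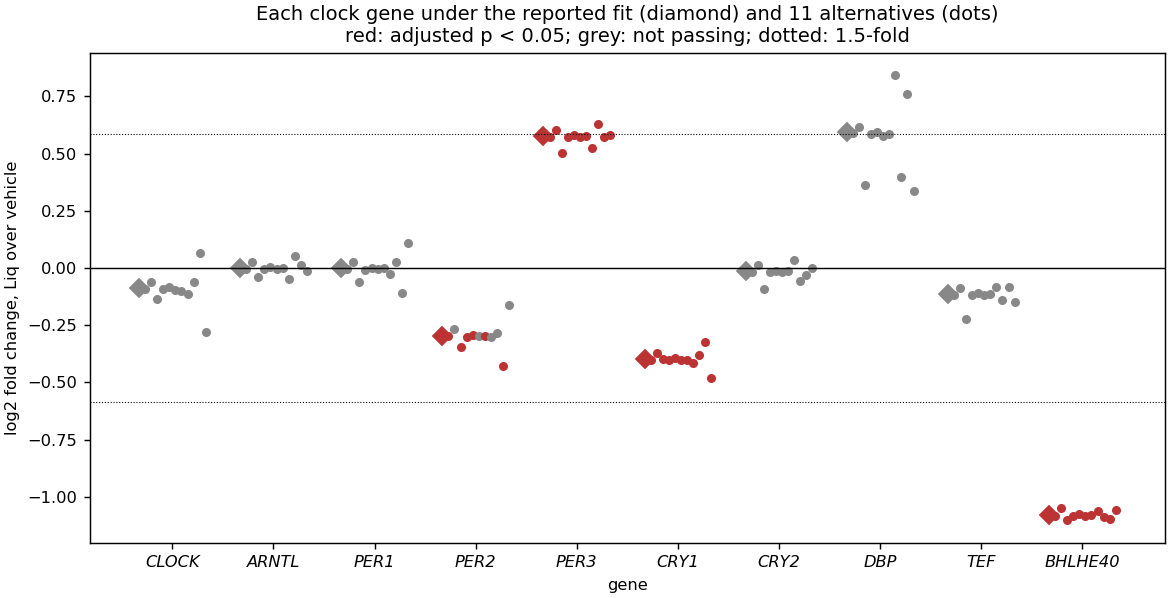
Log2 fold change, Liq over vehicle (y axis), of each clock gene (x axis) under the reported fit (diamonds) and 11 alternative fits (dots), in red where the adjusted p-value was under 0.05. BHLHE40 (-1.10 to -1.05), CRY1 (-0.48 to -0.32) and PER3 (0.50 to 0.63) are red in every fit, PER2 in 6 of the 11 alternatives, and the other 6 genes in none.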

How the data were processed

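Libraries made from the total RNA of 4 ES2 samples were analysed. The authors sequenced TruSeq libraries, aligned reads to hg19 (GRCh37) with TopHat2 2.0.8b and counted them per gene with HTSeq, and deposited raw counts per gene and sample, neither normalized nor pooled. The annotation release and the strand setting are not given in the sources used here. Annotated genes on the other strand also overlap, among others, PER2, PER3, CRY1, ARNTL, TEF, BHLHE41, NPAS2, ARNTL2, CSNK1D, GSK3B, ESR1 and ESR2. The limit given for BHLHE40 holds for them too. Of the overlapping genes, UTS2 over PER3 had 0 or 1 counts and SSPN over BHLHE41 had 18 to 34. SYNE1 over ESR1 had 1425 to 2266 counts and SYNE2 over ESR2 had 974 to 1958, far more than the receptor genes. HTSeq drops reads that align to several places or overlap several genes. Their tallies were 35.6% to 36.2% and 0.545% to 0.557% of the sum of gene counts and tallies. The tally lines were left out of the tests.

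Tests were run with edgeR 4.0.16 under R 4.3.3 (filterByExpr at min.count 10 and min.total.count 15, TMM, glmQLFit, glmQLFTest), without a replicate block, over all genes. SE was the size of the log2 fold change divided by the square root of F. Coordinates and lengths came from GENCODE on GRCh37, and promoter windows from RefSeq on GRCh38.p14, which covered 10 of 10 members. Named genes were the members, the listed clock pathway genes that passed the test, output genes that also passed 1.5-fold, the receptors, and the 3 most similar genes of 2 members. NPAS2, BHLHE41, the markers given with values and the genes named without values were added after their values were seen. The members and lists were chosen with earlier results of these data known. The fits were run on simulated counts with the same spread for every gene, which does not show how they behave on these data. Alternatives were other normalizations, filters, DESeq2 1.42.0, the block, and each sample left out. Some genes counted in the lists are not reported here by name.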

Additional observations from a re-analysis of the deposited data

How the results depend on the processing

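The directions of BHLHE40, CRY1, PER2, PER3, DBP and TEF were the same in all 11 alternative fits, while the near-zero estimates of CLOCK, ARNTL, PER1 and CRY2 changed sign in 1, 7, 4 and 3 of them and were never called. The number of changed clock genes was 4 or 3 throughout. With the 1.5-fold threshold it went from 1 to 2 with upper-quartile normalization, because PER3 passed, and ranged from 1 to 2 when single samples were left out. The 8 changed genes of the rest of the pathway became 5 with upper-quartile normalization and 5 with lowess offsets along the expression level, and ranged from 1 to 7 without single samples. Over all tested genes, 3245 calls became 1451 and 1568 without vehicle replicate 1 and 2, and the 874 calls past 1.5-fold became 570 with DESeq2. Upper-quartile normalization gave 3110 calls over all tested genes, 888 of them past 1.5-fold. The lowess offsets gave 2822 calls, 746 of them past 1.5-fold. The cause of these differences was not tested. A scaling moved the median log2 fold change of all genes from 0.01 to 0.03 at most. Upper-quartile normalization raised the share of increases among all calls from 52.8% to 60.6%. With the replicate number as a block, 4 clock genes and 10 of the other pathway genes were called, while calls over all 13546 tested genes went from 3245 to 4795. The deviations of same-numbered samples had a correlation of 0.048 over 13546 genes, and 2 pairs cannot show whether the numbers pair the samples. DBP had 14 to 38 counts, and its log2 fold change ranged from 0.335 to 0.841 over the 11 alternative fits. The part of depth in the missing call was not tested.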

Other observations

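Of 11 genes often described as outputs of the clock, 2 were higher and 3 lower in Liq at an adjusted p-value under 0.05 (edgeR), beside 12.6% and 11.3% of all tested genes, with a median log2 fold change of -0.01. CDKN1A, the cell cycle inhibitor p21, was at 19.1 and 17.8 CPM in vehicle and at 8.63 and 8.87 CPM in Liq, a log2 fold change of -1.08 (SE 0.11, edgeR adjusted p = 1.999e-08), and was the only 1 of the 11 called past 1.5-fold, where 2.16% of all tested genes were called lower and 4.29% higher. The other decreases were those of KLF10, a zinc finger repressor, and NAMPT, the rate-limiting enzyme of NAD salvage, and the increases those of the nuclear receptor genes PPARA and PPARD, each under 1.5-fold. WEE1, KLF9, KLF11, TSC22D3 and VEGFA did not pass the test.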
